A study of Oryza sativa with 12 samples.

Results

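Heat shock transcription factors (HSFs) of class A are DNA-binding proteins that switch on genes of the heat shock response. They bind heat shock elements in promoters as trimers and carry an activation domain that class B and class C factors lack. In Arabidopsis and tomato, factors of the A1 type start the response to heat, and A2 factors, whose own genes are induced, keep it going. Their targets include small heat shock proteins, ClpB chaperones and ascorbate peroxidases.

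The listed class A genes were HSFA1, HSFA2A, HSFA2B, HSFA2C, HSFA2D, HSFA2E, HSFA3, HSFA4B and HSFA4D. A probe set was taken for a gene when the platform annotation gave it 1 gene whose symbol or synonym matched. All 9 genes were matched, by 13 of the 57258 probe sets that are not array controls. Of these 13 probe sets, 12 were tested, as were 32110 probe sets in all, because they lay at or above their own array's median on at least 3 of the 12 arrays. The exception was 1 of 3 probe sets of HSFA2A.

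The RNA came from the youngest fully expanded leaf of rice plants, cultivar Dongjin, aged 2.5 months. The 4 groups of 3 arrays each were the wild type (WT) and *osnadk1*, a T-DNA line with an insertion in the NAD kinase gene *OsNADK1*, each under normal growth (day 0, soil moisture 47.3%) and after 15 days of drought (soil moisture 8.5%). No array came from watered plants of day 15, so drought and the day of sampling cannot be told apart in any drought difference given here. The mutant is a single insertion line, and no complemented line was among these arrays. Mutant and WT plants shared pots, in a greenhouse held at 36 °C by day and 28 °C by night, so all 4 groups had the same warm regime. The WT arrays carry the mark of a re-analysis in their labels. The replicates are called biological, with no statement of the plants behind each, so p-values here cover only array-to-array spread, which may be technical.

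The label prefixes split the arrays into a pair of sets, called here job A (replicates 1 and 2 of *osnadk1* and replicate 1 of WT in each condition) and job B (replicate 3 of *osnadk1* and replicates 2 and 3 of WT). That these were separate hybridisation jobs is an inference from the prefixes. The 3 normal-growth arrays of job A stood apart from the rest. Their scores on the first principal component were -121.4, -131.8 and -140.4, and those of the other 9 arrays lay between 26.5 and 66.3. On the probe set of *OsNADK1*, the log2 signal was 3.96 to 5.65 in the 6 mutant arrays and 9.43 to 10.27 in the 6 WT arrays, so the genotype labels held on every array. Of the 6 leaf markers matched, 5 lay at or above the array median on all 12 arrays, and 0 of 2 root markers and 3 of 9 panicle and seed markers passed the filter.

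All values are log2 signals, and the array medians lay between 5.08 and 5.43. Levels of different probe sets are not compared with each other, because probes differ in how well they bind. In bulk leaf RNA, fewer cells that express a gene and less RNA per cell cannot be told apart. A difference is called when the p-value of limma, adjusted by Benjamini-Hochberg over the 32110 probe sets, is under 0.05. Where a gene had several probe sets, the tested one with the highest mean stood for it in counts of genes, and the others are given beside it. Probe sets of 1 gene are numbered here by falling mean signal over the 12 arrays.

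**Figure D1:**
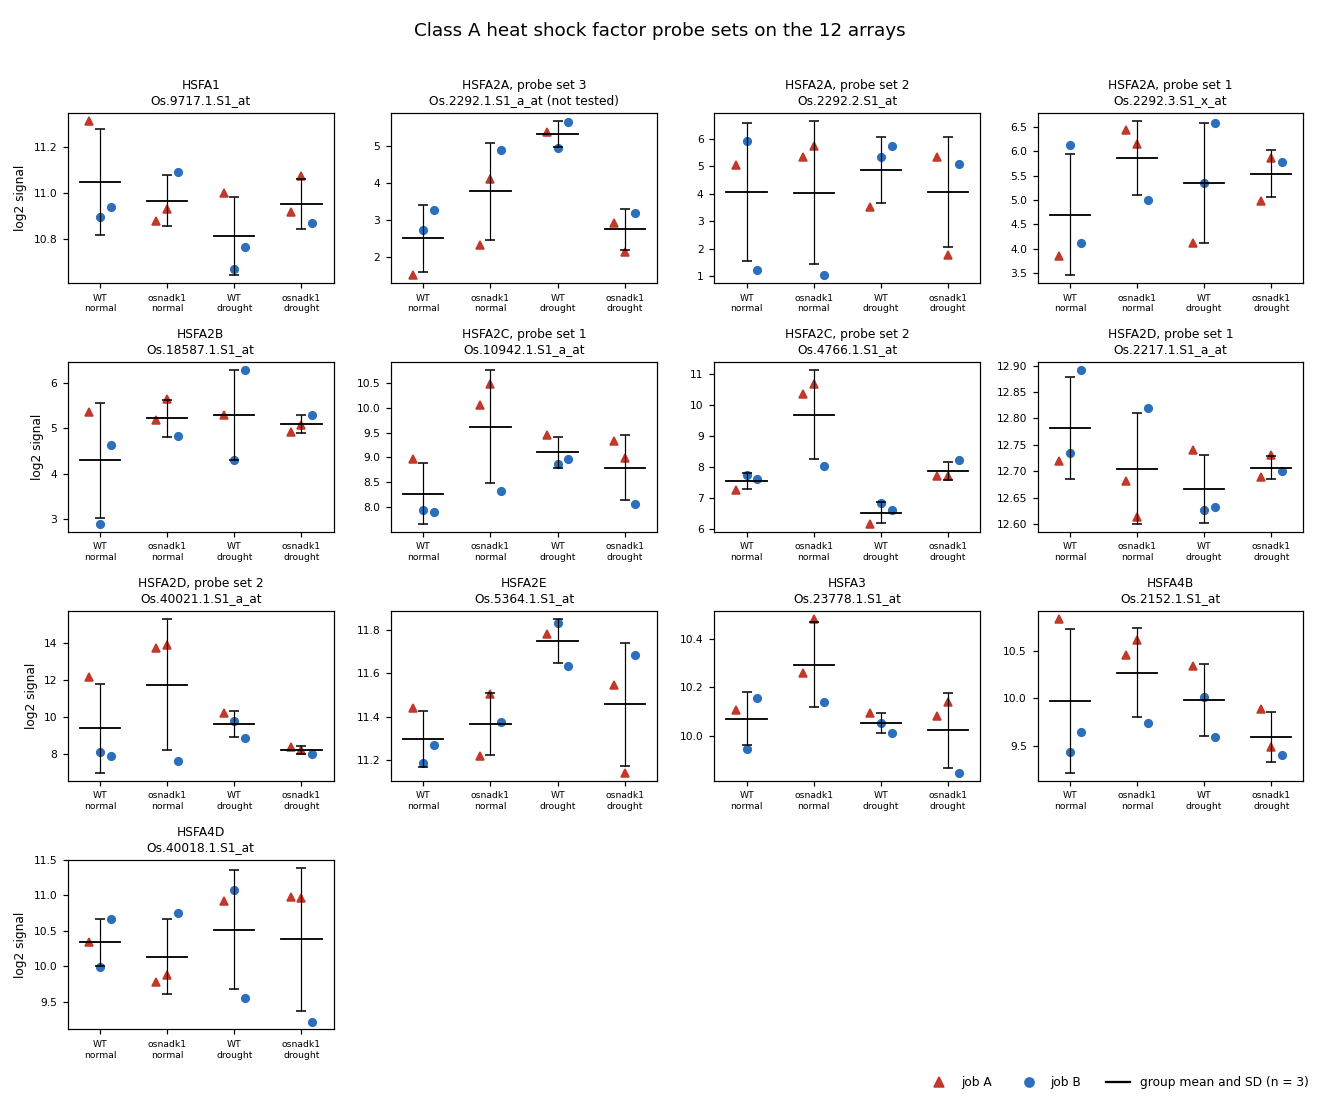
Log2 signal (vertical axes, each with its own range) of the 13 class A HSF probe sets in the 4 groups. Triangles are job A arrays, circles job B arrays, and black bars the mean and SD of 3 arrays. The 3 triangles of normal growth lie above all other points for HSFA2D (probe set 2) and HSFA4B.

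Between the genotypes, and between drought and normal growth, no class A HSF gene passed the adjusted threshold. The count was 0 of 9 genes, and 0 of 12 probe sets, in each of 6 comparisons by limma. Among all tested probe sets, 0.146% were called for *osnadk1* against WT under normal growth and 0.0623% for the same comparison under drought. For drought against normal growth the share was 0.00623% in WT, 0% in *osnadk1* and 0.302% over both genotypes, and it was 0% for the interaction. With backgrounds this low, a count of 0 among 9 genes is no result about the family. At an unadjusted p under 0.05, the number of probe sets of the family was 2 of 12 for the genotypes under normal growth, 1 for the genotypes under drought, 1 for drought in WT, 2 for drought in *osnadk1*, 2 for drought over both genotypes and 0 for the interaction. In the same order, 1938, 1696, 3135, 3966, 5849 and 1271 of all 32110 tested probe sets had such a p, so these counts are no result about the family either.

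HSFA1 is of the type that starts the heat response in tomato and Arabidopsis. In replicates 1, 2 and 3, its log2 signal was 11.31, 10.90 and 10.94 in WT under normal growth and 10.88, 10.93 and 11.09 in *osnadk1* under normal growth. Under drought it was 10.67 to 11.00 in WT and 10.92, 11.07 and 10.87 in *osnadk1*. All 4 groups overlapped. Its difference between drought and normal growth in WT was -0.24 ± 0.15 (SE; limma, adjusted p = 0.640).

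HSFA2E and HSFA3 spanned less than 1 log2 unit each. HSFA2E, which raised heat and salt tolerance when expressed in Arabidopsis, had log2 signals of 11.44, 11.18 and 11.27 in WT under normal growth and of 11.78, 11.83 and 11.63 in WT under drought. These groups did not overlap, and the difference was 0.45 ± 0.15 (limma, adjusted p = 0.347). In *osnadk1*, its values were 11.22, 11.51 and 11.38 under normal growth and 11.54, 11.14 and 11.68 under drought, which overlapped, with a difference of 0.09 ± 0.15. The interaction of genotype and drought for HSFA2E was -0.36 ± 0.22 (limma, adjusted p = 0.975).

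HSFA3, which in Arabidopsis acts downstream of DREB2A, had values of 10.26, 10.49 and 10.14 in *osnadk1* under normal growth and of 10.08, 10.14 and 9.85 under drought. The groups did not overlap, though replicate 3 of normal growth and replicate 2 of drought had the same value to 2 decimals (difference -0.27 ± 0.14, limma, adjusted p = 0.424). In WT, HSFA3 gave 10.11, 9.95 and 10.16 under normal growth and 10.09, 10.05 and 10.01 under drought. These overlapped. Leaving out the 3 normal-growth arrays of job A, the drought difference of HSFA3 in *osnadk1* was -0.12. Over the representative probe sets, groups without overlap were found for 0 of 9 genes between the genotypes under normal growth and 0 under drought, for 1 gene (HSFA2E) between the conditions in WT, and for 1 (HSFA3) in *osnadk1*. Of all tested probe sets, 7.81%, 15.2%, 17.9% and 16.9% had groups without overlap in these comparisons, so 1 of 9 genes was below or near the background.

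HSFA2A and HSFA2B lay close to the array medians. For HSFA2B the log2 signal ran from 2.89 to 5.36 in WT under normal growth and from 4.82 to 5.64 in *osnadk1* under normal growth. Under drought it ran from 4.30 to 6.28 in WT and from 4.91 to 5.30 in *osnadk1*. All groups overlapped. The 3 probe sets of HSFA2A did not move together. Probe set 1 ranged from 3.86 to 6.58 and probe set 2 from 1.04 to 5.92 over the 12 arrays, and both had overlapping groups throughout. Probe set 3, which was too low to be tested, had values of 5.36, 4.93 and 5.63 in WT under drought and of 2.92, 2.14 and 3.19 in *osnadk1* under drought. In normal growth it gave 1.52, 2.73 and 3.28 in WT and 2.34, 4.12 and 4.88 in *osnadk1*. The 3 WT drought arrays lay above the other 9, at a level near the array medians.

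HSFA2C, which in rice binds the promoter of a ClpB gene, was read by a pair of probe sets. On probe set 1, the log2 signal was 8.98, 7.93 and 7.90 in WT under normal growth and 10.06, 10.48 and 8.32 in *osnadk1* under normal growth. Under drought it was 9.46, 8.87 and 8.97 in WT and 9.33, 8.98 and 8.06 in *osnadk1*. The job A replicates of *osnadk1* under normal growth were the highest of all, and replicate 3, from job B, lay among the WT values. The genotype difference under normal growth was 1.35 ± 0.53 (limma, adjusted p = 0.767). Within job A it was 1.29, and within job B, where replicate 3 stands alone for *osnadk1*, it was 0.41. With the 3 normal-growth arrays of job A left out, only job B arrays of normal growth remain, so it was the same 0.41. Under drought the genotype difference was -0.31 ± 0.53.

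On probe set 2 of HSFA2C, the genotypes did not overlap in either condition, and *osnadk1* was the higher. Its log2 signal under normal growth was 7.27, 7.75 and 7.62 in WT and 10.35, 10.68 and 8.03 in *osnadk1*. Under drought it was 6.16, 6.82 and 6.60 in WT and 7.72, 7.70 and 8.22 in *osnadk1*. Neither difference was called. Under normal growth it was 2.14 ± 0.55 (limma, adjusted p = 0.333), with 3.24 within job A and 0.35 within job B. Under drought it was 1.35 ± 0.55 (limma, adjusted p = 0.918), and here the jobs gave close values, 1.55 within job A and 1.51 within job B. Over the alternative settings, the adjusted p for drought was 0.067 at its lowest, with the job A arrays alone. Without *osnadk1* replicate 3 of normal growth, the normal growth difference was 2.97 (limma, adjusted p = 0.00172). The mutant arrays of normal growth left in that fit were all of job A, while WT kept arrays of both jobs. Genotype and job are thus partly mixed in it. With the job A arrays alone the difference was 3.24. In fits of the job A arrays alone, WT has 1 array per condition, which is assumed to vary like those of *osnadk1*. With the 3 normal-growth arrays of job A left out, only job B arrays of normal growth remain, so the difference was the same 0.35.

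Under the second call rule, a change of at least 2-fold with an unadjusted p under 0.05, 1 of 9 genes passed for the genotypes under normal growth, which was HSFA2C, higher in *osnadk1*. In the other 5 comparisons 0 of 9 genes passed. Of the 12 tested probe sets, 2 passed for the genotypes under normal growth and 1 under drought (those of HSFA2C, higher in *osnadk1*), 2 for drought in *osnadk1* (HSFA2C and HSFA2D, probe set 2 of each, lower under drought) and 1 over both genotypes (HSFA2C probe set 2, lower), and 0 in the other 2 comparisons. The share of all tested probe sets that passed was 2.89% and 2.39% for the genotypes under normal growth and drought, 3.9%, 6.28% and 5.7% for drought in WT, in *osnadk1* and over both genotypes, and 2.4% for the interaction.

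HSFA2D, whose transcript is alternatively spliced in rice, also had a pair of probe sets, and they differed. On probe set 1 the 12 log2 signals lay between 12.61 and 12.89, with overlapping groups in both genotypes. Probe set 2 spanned from 7.62 to 13.90. Under normal growth it gave 12.19, 8.08 and 7.88 in WT and 13.77, 13.90 and 7.62 in *osnadk1*. Under drought it gave 10.20, 9.78 and 8.85 in WT and 8.38, 8.20 and 7.97 in *osnadk1*. The 3 normal-growth arrays of job A were the highest, at 12.19 or more, while the 3 job B arrays of normal growth were all at 8.08 or less. Under drought, the mutant arrays lay below the WT arrays with no overlap (difference -1.43 ± 1.54, limma, adjusted p = 0.999; -1.91 within job A and -1.35 within job B). The error is a spread shared by all 4 groups. With the 3 normal-growth arrays of job A left out, the difference was -1.43 and the adjusted p 0.156, and with the job A arrays alone, where 1 array stands for WT, it was -1.91 with an adjusted p of 0.0148. The drought difference of probe set 2 in *osnadk1* was -3.58 ± 1.54 (limma, adjusted p = 0.403), with -5.54 within job A and 0.34 within job B.

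The records behind HSFA2C and HSFA2D hold more than 1 gene name. The RefSeq record of HSFA2D also carries ARD2 and SIP2A, and that of HSFA2C, which is typed as a transcribed pseudogene, carries ARD1 and SIP2. These are names of acireductone dioxygenases, enzymes of methionine salvage. The design accessions of HSFA2C probe set 1 and HSFA2D probe set 2 fall in the run of numbers that the platform annotation gives to several rice HSFs, whereas those of HSFA2C probe set 2 and HSFA2D probe set 1 do not. Which transcript the latter pair reads was not settled here, so each probe set is described by itself. In counts of genes, probe set 1 stands for HSFA2D by the rule of the highest mean. Calls of HSFA2D probe set 2, whose accession falls in the HSF run, therefore enter only the counts of probe sets.

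HSFA4B and HSFA4D are of the A4 type. HSFA4B had log2 signals of 10.84, 9.44 and 9.65 in WT and 10.46, 10.62 and 9.74 in *osnadk1* under normal growth, and of 10.34, 10.01 and 9.60 in WT and 9.89, 9.49 and 9.40 in *osnadk1* under drought. All groups overlapped. HSFA4D, also known as SPL7, whose mutation causes leaf spots in rice, had 10.35, 10.00 and 10.67 in WT and 9.78, 9.88 and 10.75 in *osnadk1* under normal growth. Under drought it had 10.92, 11.08 and 9.56 in WT and 10.97, 10.96 and 9.22 in *osnadk1*. All groups overlapped here too. The genotype differences of both genes lay between -0.39 and 0.30, and none was called.

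The jobs were compared next. Under normal growth, 2 of 9 class A genes, HSFA2C and HSFA4B, were called lower in job B, and so was HSFA2D probe set 2, which made 3 of 12 probe sets. Over all tested probe sets, 24.6% were called in this comparison, and 9.24% were called lower. The family's share of calls, all of them lower, was close to the first of these shares and above the second. Whether the family differs from the array was not tested. HSFA2D (probe set 2), fitted with a genotype term, had a log2 difference of -5.21 ± 0.39, or 37.0-fold (limma, adjusted p = 8.98e-06). HSFA2C (probe set 1) had 8.98, 10.06 and 10.48 in job A and 7.90, 7.93 and 8.32 in job B, a difference of -1.50 ± 0.23 (limma, adjusted p = 0.000915). HSFA4B had 10.46, 10.62 and 10.84 in job A and 9.44, 9.65 and 9.74 in job B, a difference of -1.05 ± 0.18 (limma, adjusted p = 0.00187). The jobs did not overlap for any of these probe sets. With the replicate number as a block, the calls of HSFA2C and HSFA4B were lost (limma, adjusted p = 0.0524 and 0.140). Replicate 1 was always of job A and replicate 3 always of job B, so this block takes up much of the job difference. HSFA2C probe set 2 was not called (-1.03 ± 0.49, limma, adjusted p = 0.158). In job A, WT replicate 1 was at 7.27, and *osnadk1* replicates 1 and 2 were at 10.35 and 10.68. Without WT replicate 1, its difference was -2.48 and the adjusted p 8.44e-05.

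**Figure D2:**
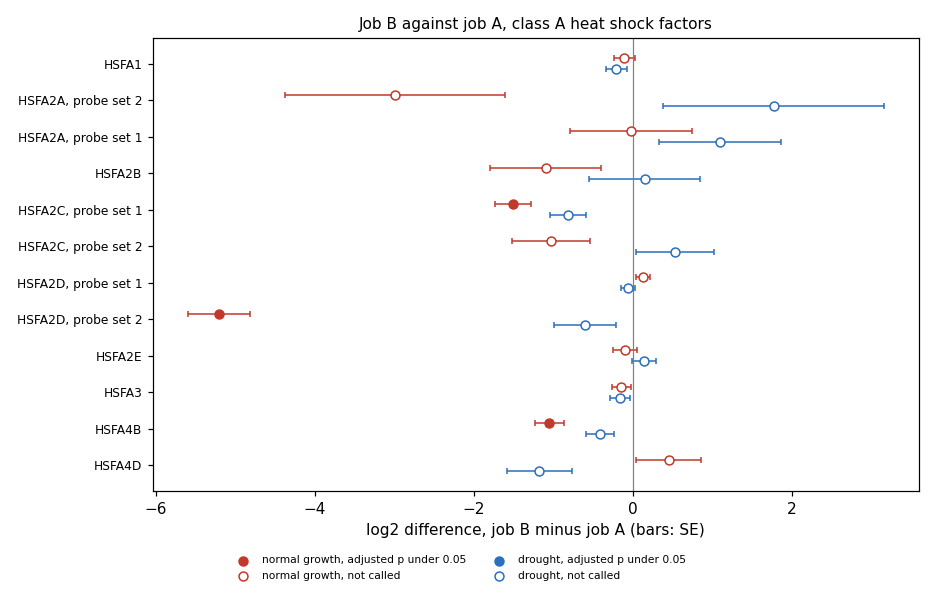
Log2 difference, job B minus job A, of the 12 tested class A HSF probe sets under normal growth (red) and under drought (blue). Points are limma estimates with a genotype term, bars are standard errors, and filled points have an adjusted p under 0.05. The filled points are HSFA2D (probe set 2) at -5.21, HSFA2C (probe set 1) at -1.50 and HSFA4B at -1.05, all under normal growth.

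Under drought, 0 of 9 class A genes were called between the jobs by limma, against 1.61% of all tested probe sets. At an unadjusted p under 0.05 there were 3 of 9 genes, against 4419 of 32110 tested probe sets. HSFA2C (probe set 1) had 9.33, 8.98 and 9.46 in job A and 8.06, 8.87 and 8.97 in job B (-0.82 ± 0.23, limma, adjusted p = 0.126). The jobs did not overlap, though the lowest job A value and the highest job B value lay close together. Without *osnadk1* replicate 3 or WT replicate 1 of normal growth, which leave the difference as it is, the adjusted p was 0.0383 and 0.0386. HSFA4D was at 10.97, 10.96 and 10.92 in job A, while in job B it was 9.22 and 9.56 on 2 arrays and 11.08 on WT replicate 2 (difference -1.18 ± 0.41, limma, adjusted p = 0.228). Without that array the difference was -1.58 and the adjusted p 0.0230.

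The drought difference was next taken within each job. In job A, 1 of 9 genes, HSFA4B, was called lower under drought, and 3 of 12 probe sets were, against 24.6% of all tested probe sets called and 8.86% called lower. HSFA2D (probe set 2) fell by 3.98 ± 0.38 on the log2 scale (limma, adjusted p = 4.95e-05) and HSFA2C probe set 2 by 2.19 ± 0.47 (limma, adjusted p = 0.00721). HSFA4B fell by 0.65 ± 0.17 (limma, adjusted p = 0.0211). The call of HSFA4B was lost with array median centring (adjusted p = 0.0970) and without any 1 of *osnadk1* replicate 2 of normal growth, *osnadk1* replicate 2 of drought, WT replicate 1 of normal growth or WT replicate 1 of drought, with adjusted p-values of 0.0522, 0.0694, 0.150 and 0.0654. That of HSFA2C probe set 2 was lost without WT replicate 1 of drought (adjusted p = 0.0578). HSFA4D had a difference of 1.03 ± 0.40 in job A (limma, adjusted p = 0.0884), with all 3 drought arrays above all 3 of normal growth, and without WT replicate 2 of drought, a job B array, its adjusted p was 0.0171.

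In job B, 0 of 9 genes were called between drought and normal growth by limma, against 1.32% of all tested probe sets. At an unadjusted p under 0.05 there was 1 of 9 genes, against 4176 of 32110 tested probe sets. HSFA2E came nearest, with 11.38, 11.18 and 11.27 under normal growth and 11.68, 11.83 and 11.63 under drought (0.39 ± 0.15, limma, adjusted p = 0.274). HSFA2D (probe set 2) had a difference of 0.63 ± 0.38 in job B, which was not called. The difference between the responses in the jobs was tested directly. It was called for 0 of 9 genes by limma, against 13.2% of all tested probe sets. At an unadjusted p under 0.05 there were 2 of 9 genes, against 8497 of 32110 tested probe sets. Of the 12 probe sets of the family, 1 was called. That was HSFA2D (probe set 2), whose response in job B minus that in job A was 4.60 ± 0.55 (limma, adjusted p = 0.000524). For HSFA4D it was -1.63 ± 0.58 (limma, adjusted p = 0.0975), and without WT replicate 2 of drought -2.03 with an adjusted p of 0.00677.

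**Figure D3:**
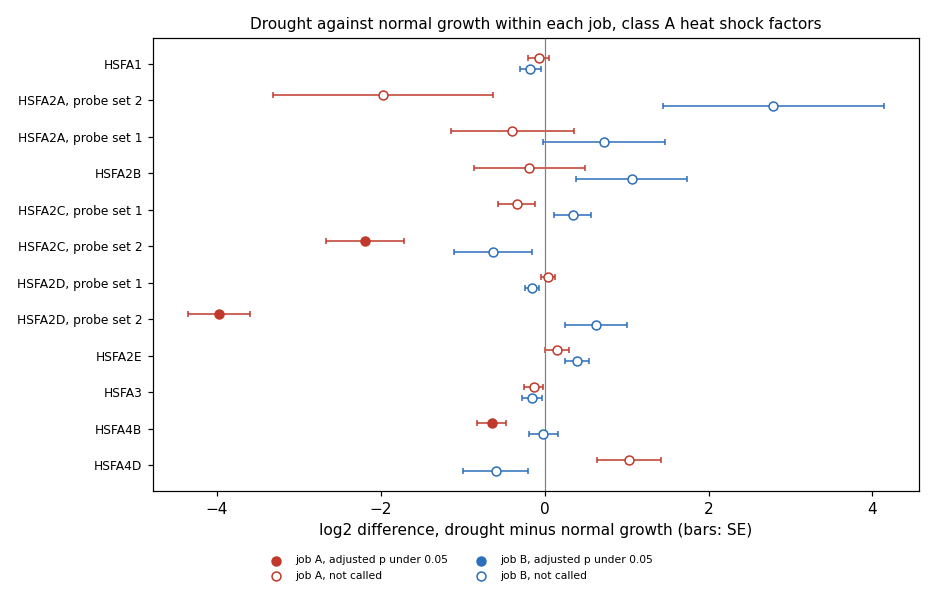
Log2 difference between drought and normal growth of the 12 tested class A HSF probe sets in job A (red) and job B (blue). Points are limma estimates with a genotype term, bars are standard errors, and filled points have an adjusted p under 0.05. HSFA2D (probe set 2) has its job A point at -3.98 and its job B point at 0.63, and no job B point is filled.

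Other transcripts stood apart on the same 3 arrays. Of the 6 clock genes, which cycle over the day and were listed with these values known, 5 were called between the jobs under normal growth. The share of all tested probe sets was 24.6%. The log2 signal of CCA1, a clock gene with a morning peak, was 13.02 to 13.79 on the 3 normal-growth arrays of job A and 7.31 to 8.63 on the other 9. That of PRR1 (TOC1), with an evening peak, was 9.34 to 9.83 on the former and 12.12 to 12.54 on the latter. Of the 6 leaf markers, 2 were called lower in job B under normal growth, against 9.24% of all tested probe sets. Among these markers was the Rubisco activase RCAA1 (-2.07 ± 0.22, limma, adjusted p = 9.48e-05). The summed linear signal of the 6 leaf markers was 150547 to 187798 on those 3 arrays and 90809 to 125481 on the other 9. That of the 9 panicle and seed markers was 1717 to 2088 against 1156 to 1428, and that of the 2 root markers was 9 to 74 over all 12 arrays. Of the panicle and seed genes, MADS6 lay below the array median on all 12 arrays. The 3 that were tested (MADS1, GLUA2 and GLUB5) lay above it on all 12. Of these 3, 2 were called lower in job B under normal growth, against 9.24% of all tested probe sets. The root enzyme NAS1 lay below the median on all 12 arrays. The time of day at which each array's leaves were cut is not in the labels, and the part of these transcripts in the job difference of the HSF genes was not tested.

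**Figure D4:**
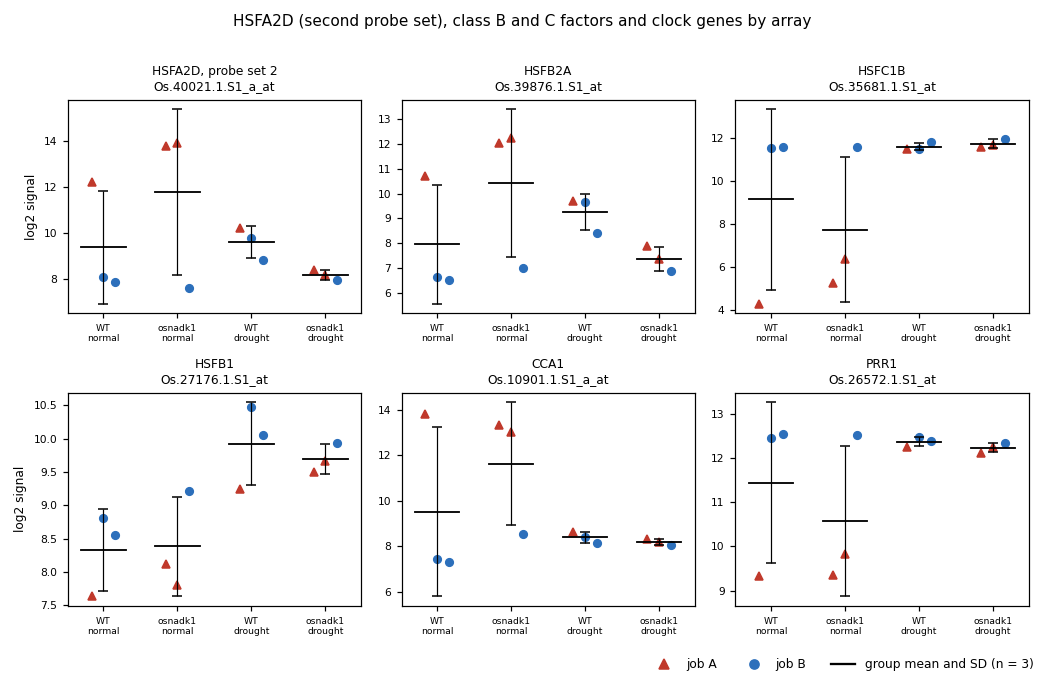
Log2 signal by group of HSFA2D (probe set 2), the class B factors HSFB2A and HSFB1, the class C factor HSFC1B, and the clock genes CCA1 and PRR1. Triangles are job A arrays, circles job B arrays, and black bars the mean and SD of 3 arrays. The 3 triangles of normal growth lie apart from the other 9 points for all 6 genes.

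Other HSF genes were also called between the jobs. Class B factors, which lack the activation domain and in part act as repressors, had 5 genes matched and tested, of which 3 were lower and 1 higher in job B under normal growth. Of all tested probe sets, 9.24% were lower and 15.4% higher. HSFB2A was at 10.71 to 12.23 on the 3 normal-growth arrays of job A and at 6.51 to 9.69 on the other 9 (job difference -4.64 ± 0.33, limma, adjusted p = 6.12e-06). The difference was -1.87 ± 0.41 for HSFB2C (limma, adjusted p = 0.00795, 0.135 without *osnadk1* replicate 3 of normal growth and 0.0553 with a replicate block) and 1.15 ± 0.20 for HSFB1 (limma, adjusted p = 0.00179). Of the 3 class C genes, 1 was higher and 1 lower. HSFC1B was at 4.30 to 6.39 on the 3 normal-growth arrays of job A and at 11.50 to 11.98 on the other 9 (job difference 6.54 ± 0.34, limma, adjusted p = 9.34e-07), and HSFC2A had a difference of -1.84 ± 0.35 (limma, adjusted p = 0.00376). Of the class A genes outside the list, HSFA5, HSFA6B and HSFA9 were matched and none was called between the jobs. The log2 signal of HSFA6B was 0.61, 2.50 and 5.33 on the 3 normal-growth arrays of job A. These values lie near or below the array medians, which limits what the size of its changes can show. HSFA6B rose under drought in job A (3.69 ± 1.10, limma, adjusted p = 0.0337), a call lost without any 1 of 7 arrays, which were *osnadk1* replicate 2 of normal growth, the 3 *osnadk1* arrays of drought, WT replicate 1 of normal growth and WT replicates 1 and 3 of drought, with adjusted p up to 0.166, and without the variance trend (0.0709).

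Of the HSF genes tested, HSFB1 had a called drought difference in both jobs. In job A its log2 signal was 7.63 to 8.13 under normal growth and 9.25 to 9.67 under drought, and in job B it was 8.56 to 9.22 and 9.94 to 10.47. The difference was 1.69 ± 0.19 in job A (limma, adjusted p = 0.000141) and 1.22 ± 0.19 in job B (limma, adjusted p = 0.0177). Over the alternative settings the adjusted p ran from 9.22e-05 to 0.00120 in job A and from 0.00900 to 0.0751 in job B, where the call was lost without *osnadk1* replicate 3 of drought, WT replicate 3 of normal growth or WT replicate 3 of drought, and without the variance trend (adjusted p = 0.0687).

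Downstream of the factors, 19 small heat shock protein genes were matched and 16 tested. These chaperones hold unfolding proteins in solution. In the comparison over both genotypes, HSP17.9A (1.09 ± 0.15, limma, adjusted p = 0.0245) and HSP26.2 (0.81 ± 0.14, limma, adjusted p = 0.0421) rose under drought, and the other 14 were not called. The share of all tested probe sets called was 0.302%. The call of HSP17.9A was lost without any 1 of 8 arrays (all but replicate 3 of *osnadk1* and replicates 1 and 2 of WT under normal growth, and replicate 1 of WT under drought; adjusted p up to 0.0908), and that of HSP26.2 without any 1 of 11 (all but replicate 3 of *osnadk1* under normal growth, up to 0.140). Both calls were also lost under other settings, that of HSP17.9A without the variance trend (0.0522) and that of HSP26.2 with quantile normalization, median centring, no filter or a replicate block (0.0526 to 0.0739). The median difference of the 16 was 0.24, beside 0.05 over all tested probe sets. Of the 16, 1 was called for drought in WT alone (HSP17.9A), against 0.00623% of all tested probe sets. In WT alone, HSP17.9A went from 10.64, 10.61 and 10.62 under normal growth to 12.61, 12.65 and 12.54 under drought (1.98 ± 0.22, limma, adjusted p = 0.0298), a call that was lost without any 1 of 9 arrays (all but replicates 2 and 3 of *osnadk1* and replicate 1 of WT under normal growth), without the variance trend (0.0926) and with a replicate block (0.0685), while over all settings the difference ran from 1.88 to 2.01. In *osnadk1* it was 11.27, 11.58 and 10.55 under normal growth and 11.28, 11.19 and 11.53 under drought. These overlapped. Replicate 3, from job B, was at 10.55 under normal growth and 11.53 under drought. The interaction of genotype and drought was called for 0 of 32110 tested probe sets, so a different response of HSP17.9A in the genotypes was not shown.

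By job, 4 of the 16 tested small heat shock protein genes were called higher under drought in job B, against 0.894% of all tested probe sets, and none lower. They were HSP18.6 (2.25 ± 0.26, adjusted p = 0.00526), HSP17.9A (1.38 ± 0.17, adjusted p = 0.00712), HSP17.9B (1.04 ± 0.19, adjusted p = 0.0324) and, named after its values were seen, HSP16.9A (1.25 ± 0.23, adjusted p = 0.0350), all by limma. Each of these calls was lost without *osnadk1* replicate 3 of drought, with adjusted p-values of 0.0724, 0.0952, 0.204 and 0.185. Those of HSP17.9B and HSP16.9A were also lost without any 1 of several other arrays, without the variance trend and with a replicate block, and that of HSP17.9B with median centring. In job A, 4 of the 16 were called higher and 4 lower, against 15.7% and 8.86% of all tested probe sets. HSP17.7 was higher (1.04 ± 0.15, limma, adjusted p = 0.000786) and HSP18.6 lower (-1.76 ± 0.26, limma, adjusted p = 0.000787). The response of HSP18.6 in job B minus that in job A was 4.01 ± 0.38 (limma, adjusted p = 0.000111).

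**Figure D5:**
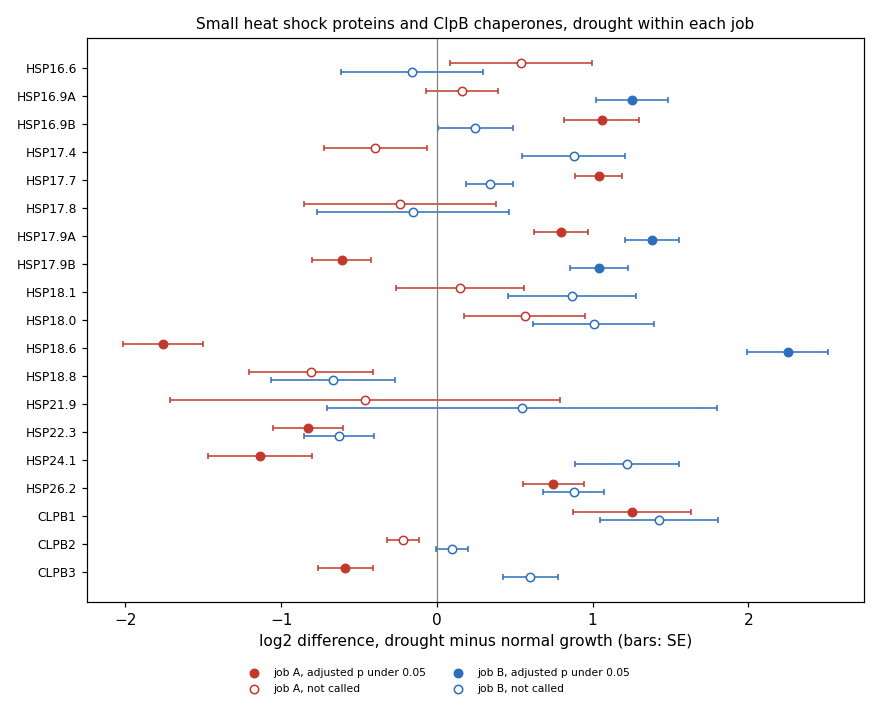
Log2 difference between drought and normal growth of 16 small heat shock protein genes and 3 ClpB chaperone genes in job A (red) and job B (blue). Points are limma estimates with a genotype term, bars are standard errors, and filled points have an adjusted p under 0.05. HSP18.6 lies at -1.76 in job A and 2.25 in job B, while HSP17.9A is above 0 in both.

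In the comparison of drought with normal growth over both genotypes, 0 of 3 ClpB genes, 0 of 3 HSP90 genes, 0 of 5 DnaJ genes, 0 of 2 ascorbate peroxidase genes and 0 of 2 DREB2 genes were called by limma (1 ClpB and 1 DnaJ gene at an unadjusted p under 0.05). Of all tested probe sets, 0.302% were called, and 5849 of 32110 had an unadjusted p under 0.05. In job A, where 24.6% of all tested probe sets were called, 1 ClpB gene was higher and 1 lower under drought, 2 DnaJ genes were higher and 1 lower, and 1 ascorbate peroxidase gene was higher. Of these calls, that of CLPB1 was lost in 9 alternative settings, that of CLPB3 in 8, that of APX1 in 12 and that of DJC43 in 15. In job B, 0 genes of these lists were called by limma, against 1.32% of all tested probe sets. At an unadjusted p under 0.05 there were 2 ClpB and 2 DnaJ genes, against 4176 of 32110 tested probe sets. The DREB2 genes, which in Arabidopsis act upstream of HSFA3, had a median difference of 0.10. Between the jobs under normal growth, the difference of CLPB3 was -1.52 ± 0.18 (limma, adjusted p = 0.000194).

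Likeness of pattern was measured as the root mean square difference of log2 signal over the 12 arrays after centring, among tested probe sets with 1 gene. For HSFA2C (probe set 1) the nearest of 18665 were LOC4340201 (0.200), LOC4345780 (0.297) and LOC4330022 (0.297), which the reference table leaves without a name. For HSFA2A and HSFA2B, whose signals lay near the array medians, the nearest probe sets differed by 0.446 or more. HSFA2D probe set 2, added after its values were seen, was nearest to HSFB2A (0.521).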

How the data were processed

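Leaf RNA of 12 samples was hybridised to 12 Affymetrix rice genome arrays. The deposited log2 signals were made by the authors with MAS5 (version not given in the sources used here), and the trimmed mean of the linear values (2% cut at each end) was 500.07 to 500.08 on every array, which bears out scaling to 1 target. The number of arrays limits the precision. No further normalization was applied, and 123 control probe sets were left out of 57381. Probe sets were named through the platform annotation and RefSeq (assembly ASM3414082v1). The probe set of *OsNADK1* was identified from the study's supplement, and its values from the arrays. No genome build is named for the array, so no coordinates are given, and no sequences or promoter motifs were analysed here.

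All 12 arrays entered linear models in limma 3.58.1 (R 4.3.3; mean-variance trend, Benjamini-Hochberg adjustment), which were first tested on simulated data. The first fit had the means of the 4 groups. The second had the 4 combinations of job and treatment with a genotype term in each treatment. The second rule, a 2-fold change with an unadjusted p under 0.05, follows the study's methods, which do not say whether their p-values were adjusted. All probe sets of the listed genes are given. Of other lists, up to 3 called genes with the smallest adjusted p per comparison are named, or up to 2 of the highest mean where none is called, and likeness was measured for the 3 listed genes of the largest SD. Genes and lists were chosen with earlier results of these data known. The clock genes and the other class A genes were added to the lists later, and listed names without a match were dropped. Alternatives were quantile normalization, median centring, other filters, a pseudocount of 16, no variance trend, other probe sets, blocks for replicate and job, single jobs, and the compared groups alone, and fits that leave out single arrays or the 3 normal-growth arrays of job A. In the fit with job by treatment as a block, job was coded around 0 (a coding chosen after seeing the data), so that each difference averages over the jobs.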

Additional observations from a re-analysis of the deposited data

Results flagged for a closer look

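The drought response differed between the jobs, by the test of the difference itself, for 12 probe sets of the HSF genes and the heat shock gene lists, with 1 probe set per gene outside class A. Tested for this were 12 class A probe sets, and 3 other class A, 5 class B and 3 class C genes. So were 16 small heat shock protein, 3 ClpB, 3 HSP90, 1 BiP, 5 DnaJ, 2 ascorbate peroxidase and 2 DREB2 genes. Of all tested probe sets, 13.2% were called in this comparison. Values are the response in job B minus that in job A on the log2 scale, with limma's adjusted p. In the class A family this was HSFA2D (probe set 2), at 4.60 (adjusted p = 0.000524). Of the other factors, it was HSFB2A at 3.95 (adjusted p = 0.000456), HSFC1B at -6.28 (adjusted p = 3.67e-05) and HSFC2A at 3.12 (adjusted p = 0.00279). Among small heat shock proteins, it was HSP18.6 at 4.01 (adjusted p = 0.000111), HSP17.9B at 1.65 (adjusted p = 0.00320) and HSP24.1 at 2.36 (adjusted p = 0.0101). Among other chaperones, it was CLPB3 at 1.19 (adjusted p = 0.0126), BIP1 at -1.15 (adjusted p = 0.0102), DJB6 at -2.41 (adjusted p = 0.000463), DJC27 at 2.08 (adjusted p = 0.00266) and DJA6 at 0.57 (adjusted p = 0.0436). The call of DJA6 was lost without any 1 of 10 arrays (adjusted p = 0.0658 to 0.166) and in 5 other settings (up to 0.346). Calls were also lost for BIP1 without *osnadk1* replicate 3 of drought (adjusted p = 0.0777), for HSP24.1 without WT replicate 1 of drought (0.0718), and for CLPB3 without that array (0.0928) and with median centring (0.0548). The 3 normal-growth arrays of job A enter each of these differences. With 3 arrays a group, single outlying arrays were not tested for.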

How the results depend on the processing

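Counts of class A HSF genes called moved under these settings. For drought in job A (1 gene) the count was 0 with array median centring, 3 when the tested probe set of lowest mean stood for each gene, and 0 to 2 without single arrays. For the response in job B minus that in job A (0 genes) it was 1 with that choice of probe set and 0 to 1 without single arrays, and for the jobs under drought (0 genes) 0 to 1 without single arrays. With the job A arrays alone, 1 gene was called for the genotypes under normal growth, 3 for drought in *osnadk1* and 2 for drought over both genotypes (0 in the fit of all arrays), and with the job B arrays alone 1 for drought in WT. With a replicate block, the count for the jobs under normal growth went from 2 to 0 (HSFA2C -1.56, adjusted p = 0.0524; HSFA4B -0.88, adjusted p = 0.140), while the block moved no other count of class A genes. Replicate 1 was always of job A and replicate 3 always of job B, so that block takes up much of the job difference. Deviations from the group means correlated between -0.27 and 0.32 for same-numbered arrays of different groups. For differently numbered arrays the range was -0.40 to 0.35. Because the numbers partly follow the job, these values cannot show whether arrays are paired, and no pairing was assumed. HSFA2D (probe set 2) under drought in WT was 0.23 over all arrays and -1.99 (adjusted p = 0.000995) with the job A arrays alone, where WT has 1 array per condition and is assumed to vary like *osnadk1*. The cause of these changes was not tested. Counts for the genotypes under drought and the interaction stayed at 0 in every setting run. Signs of differences that were never called were not compared. MAS5 signals near the array median, as for HSFA2A and HSFA2B, limit what can be seen of those genes.

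Counts over all tested probe sets moved more than those of the family. Between the fit as reported and the lowest and highest alternative, they were 47, 10 and 1209 for the genotypes under normal growth, 20, 11 and 123 for the genotypes under drought, and 2, 0 and 4906 for drought in WT. For drought in *osnadk1* they were 0, 0 and 7282, for drought over both genotypes 97, 0 and 8775, and for the interaction 0, 0 and 394. Between the jobs they were 7912, 2242 and 8001 under normal growth and 518, 21 and 1185 under drought. For drought they were 7893, 4772 and 9651 in job A and 424, 37 and 1321 in job B, and for the difference of responses 4252, 2649 and 5552. In the fit with job by treatment as a block, 0 class A genes were called by their probe set of highest mean in the 6 group comparisons. Of the other probe sets, HSFA2D probe set 2 was called for drought in *osnadk1* (-2.81, adjusted p = 0.00218) and over both genotypes (-1.68, adjusted p = 0.00169), as was HSFA2C probe set 2 over both genotypes (-1.41, adjusted p = 0.0140).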
